A study of Homo sapiens with 3 samples.

Results

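LX-2 cells, a line of human hepatic stellate cells, were treated with recombinant human FGF19 (rhFGF19), and mRNA libraries of 2 doses, 100 ng/mL and 50 ng/mL, are compared here, with 1 library at each dose. The genes were all those with a mean of at least 1 FPKM over both libraries, which left 10906 of the 26108 genes in the table (41.8%). FPKM gives mapped fragments relative to transcript length and library size. Of the 3 samples in the series, the vehicle-treated cells were not used as a reference. The stimulation time is given as 24 h in the series design, but as 72 h and 73 h in the description fields of the 50 and 100 ng/mL samples. Those fields also exchange the doses, and the doses used here are those of the sample titles. If the description fields were right, every direction below would turn around. All values of the 50 ng/mL library sum to 276690 FPKM, with 10925 genes at 1 FPKM or more, and those of the 100 ng/mL library to 281606 FPKM, with 10894 such genes. With 1 library per dose there was no replicate check, no test was made, and a difference between doses cannot be told apart from a difference between cultures or libraries.

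FGF19 is an endocrine fibroblast growth factor that the ileum releases in response to bile acids. In hepatocytes it signals through FGFR4 with the co-receptor beta-Klotho (KLB) and represses bile acid synthesis. FGF receptors pass their signal through adaptors to RAS and the ERK kinases, which induce their own inhibitors, such as Sprouty proteins and dual-specificity phosphatases. Hepatic stellate cells store vitamin A, and once activated they turn into matrix-producing fibroblasts. In tumours such fibroblasts are divided into inflammatory cells that secrete cytokines (iCAF) and contractile, matrix-rich cells (myCAF).

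Stellate markers were listed at similar levels in both libraries. Their summed level was 1190 FPKM at 50 ng/mL and 1199 FPKM at 100 ng/mL, and 12 of the 19 markers in the table passed the filter. The most abundant was VIM, an intermediate filament protein, at 654 and 649 FPKM. COL1A1, a chain of type I collagen, was at 108 and 104 FPKM, and ACTA2, the smooth muscle actin of activated stellate cells, at 8.01 and 7.74 FPKM. Genes of quiescent stellate cells were mixed. LRAT, which esterifies retinol, was listed at 0 in both libraries and GFAP was at 0.07 and 0.08 FPKM, whereas LHX2 was at 1.33 and 1.48 FPKM and NGFR at 11.3 and 10.1 FPKM. Of 7 endothelial markers in the table, 0 passed the filter. Of 15 hepatocyte markers, 2 passed, ALB at 2.49 and 1.89 FPKM and SERPINA1 at 9.62 and 9.11 FPKM. Of 7 blood cell markers, 2 passed, CD68 at 44.2 and 39.8 FPKM and CD14 at 2.76 and 2.54 FPKM. Of 8 epithelial markers, 4 passed, all lower at 100 ng/mL, and the summed level of the 8, led by KRT18, was 323 and 317 FPKM.

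The transcriptomes of both doses were close. The log2 difference, taken here as log2(FPKM + 0.1) at 100 ng/mL minus that at 50 ng/mL, had a median of 0.00 over the 10906 genes. Its quartiles were -0.08 and 0.08. A total of 7592 genes (69.6%) lay within 1.1-fold and 10638 genes (97.5%) within 1.5-fold. By the criterion of more than 2-fold, 82 genes (0.752%) differed, of which 35 (0.321%) were higher and 47 (0.431%) lower at 100 ng/mL. At a threshold of 1.5-fold, 115 genes (1.05%) were higher and 153 genes (1.4%) were lower. Pearson's r of the log2 values between the libraries was 0.99 across genes, which are not independent replicates. Genes just at the filter were BAIAP2L1, inside it at 1.15 and 0.85 FPKM, and GALNT4, outside it at 0.88 and 1.11 FPKM.

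**Figure D1:**
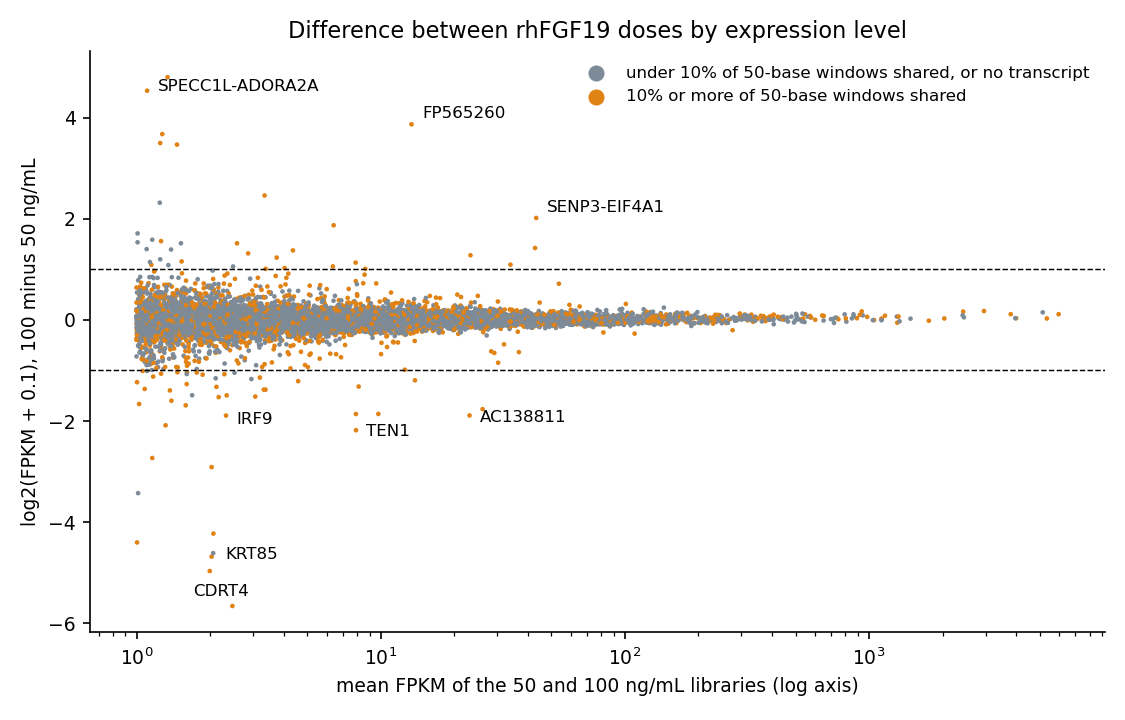
Log2 difference (100 minus 50 ng/mL, y axis) against mean FPKM of both libraries (x axis, log scale) for the 10906 genes, 1 point per gene; dashed lines mark 2-fold, and orange points are genes with 10% or more of their transcript windows shared with another gene. Of the 82 genes beyond the lines, 74 lie between 1 and 10 FPKM.

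The spread between the doses narrowed with expression level. The interquartile range of the log2 difference was 0.22 for the 6942 genes between 1 and 10 FPKM, 0.11 for the 3539 genes between 10 and 100 FPKM, and 0.07 for the 425 genes above 100 FPKM. More than 2-fold were 30 genes higher and 44 lower in the first band and 5 higher and 3 lower in the middle band. None of the 425 genes above 100 FPKM was past 1.5-fold. In the lowest decile of genes by level the interquartile range was 0.35, and in the highest decile it was 0.08.

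**Figure D2:**
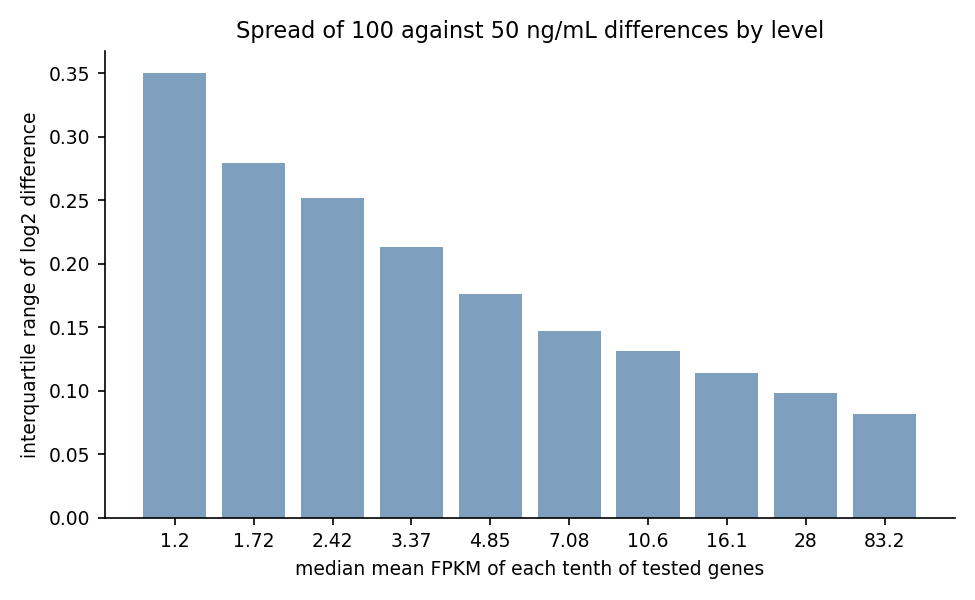
Interquartile range of the log2 difference (y axis) in each decile of the tested genes, labelled by the median of the mean FPKM (x axis). The range narrows from 0.35 in the lowest decile to 0.08 in the highest.

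Among the most abundant mRNAs, the largest differences were small. NDUFS5, a subunit of respiratory complex I, was at 132 FPKM at 50 ng/mL and 157 FPKM at 100 ng/mL, a log2 difference of 0.24. RPL36AL, a ribosomal protein, was at 111 and 128 FPKM, and RPS12, another, at 879 and 988 FPKM. MT-CO2, a mitochondrially encoded subunit of cytochrome c oxidase, was at 2778 and 3135 FPKM (log2 difference 0.17, and 0.00 with quantile normalization). The hair keratin KRT81 was at 114 and 129 FPKM. These were the 5 highest coding genes above 100 FPKM by log2 difference. At the other end were AP002990, at 120 and 99.3 FPKM, and RPS10, at 296 and 257 FPKM. EZR, which links the plasma membrane to actin, was at 195 and 179 FPKM, the adaptor protein YWHAE at 110 and 102 FPKM, and the collagen cross-linking enzyme LOXL2 at 137 and 128 FPKM (log2 difference -0.10).

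The genes with the largest differences were largely listings that share their transcript sequence with another gene. A readthrough gene is a listing for transcripts that run from one gene into its neighbour, and so it holds exons of both. The share of 50-base windows of a gene's longest transcript that also occur in a transcript of another listed gene was computed from the reference annotation. It was 10% or more for 63 of the 79 genes past 2-fold that have a transcript there (79.7%), against 24.1% of all tested genes. Exon overlap with another listed gene on the same strand was found for 40 of the 82 genes (48.8%), against 14% of all tested genes. Of the 41 coding genes past 2-fold, 33 overlapped in this way (80.5%), against 14.1% of the 9891 coding genes tested. Of the 58 tested genes described as readthrough in the table, 11 (19%) were past 2-fold, 7 higher and 4 lower, against 0.752% of all tested genes. Some genes past 2-fold, among them CDRT4 and SPECC1L-ADORA2A, passed the mean filter only through the library where they were high. The median level of the genes past 2-fold was 2.03 FPKM, against 5.85 FPKM for all tested genes. With at least 1 FPKM in each library, 16 genes were more than 2-fold higher and 23 lower. The shares above were not counted with that filter.

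The SENP3 locus on chromosome 17 shows the pattern at a high level. SENP3, a SUMO protease of the nucleolus, was at 44.8 FPKM at 50 ng/mL and 28.8 FPKM at 100 ng/mL. The readthrough gene SENP3-EIF4A1 was at 17.1 and 69.6 FPKM, a log2 difference of 2.01. EIF4A1, the RNA helicase of translation initiation at the end of the same readthrough, was at 236 and 224 FPKM. The 8 listed genes of this locus summed to 348 and 368 FPKM, a log2 difference of 0.08. SENP3-EIF4A1 made up 18.9% of that sum at 100 ng/mL, too little to take it past 1.5-fold alone.

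At the PPAN and TEN1 loci the readthrough gene was higher at 100 ng/mL and the first gene lower, and both locus sums were lower, that of TEN1 by more. PPAN-P2RY11 was at 0.96 and 5.73 FPKM (log2 difference 2.46), whereas PPAN, a ribosome biogenesis factor, was at 12.4 and 7.7 FPKM and the purinergic receptor P2RY11 at 3.14 and 1.44 FPKM. Their summed level was 16.5 and 14.9 FPKM. TEN1, a subunit of the telomere-capping CST complex, was at 13.1 and 2.8 FPKM (log2 difference -2.18). TEN1-CDK3, the readthrough listing, was at 4.1 and 8.64 FPKM, and the sum of the locus was 17.2 and 11.6 FPKM (log2 difference -0.57).

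CDRT4 was the lowest coding gene, at 3.96 FPKM at 50 ng/mL and 0.03 FPKM at 100 ng/mL. TVP23C-CDRT4, which contains it, was at 5.83 and 8.96 FPKM, and the locus summed to 11.2 and 10.2 FPKM. ABHD14A-ACY1 was at 2.09 and 0.23 FPKM, and ACY1, an enzyme that deacetylates amino acids, at 6.37 and 10.6 FPKM. ABHD14A itself was at 9.98 and 9.79 FPKM. SPECC1L-ADORA2A was listed at 0 at 50 ng/mL and at 2.21 FPKM at 100 ng/mL, whereas ADORA2A, an adenosine receptor, was at 1.7 and 0.02 FPKM. The 3 genes of that locus summed to 6.99 and 7.08 FPKM. SPECC1L-ADORA2A made up 31.2% of that sum at 100 ng/mL, again too little to take it past 1.5-fold alone.

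ABHD14A and ABHD14A-ACY1 have a RefSeq start in common, and the 250 bases before it are shown because they precede both a gene with similar FPKM at both doses and one lower at 100 ng/mL. In the deposited table their starts differ, at 51971426 for ABHD14A and 51974706 for ABHD14A-ACY1. The sequence is from RefSeq, GRCh38.p14, chr3:51974814-51975063, plus strand, and none of the motifs searched below is in it.
ABHD14A and ABHD14A-ACY1: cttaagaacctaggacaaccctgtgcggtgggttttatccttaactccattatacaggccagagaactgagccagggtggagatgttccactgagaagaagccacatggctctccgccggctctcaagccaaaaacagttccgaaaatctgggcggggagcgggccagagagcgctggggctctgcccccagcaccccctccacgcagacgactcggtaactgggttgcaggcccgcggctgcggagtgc

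**Figure D3:**
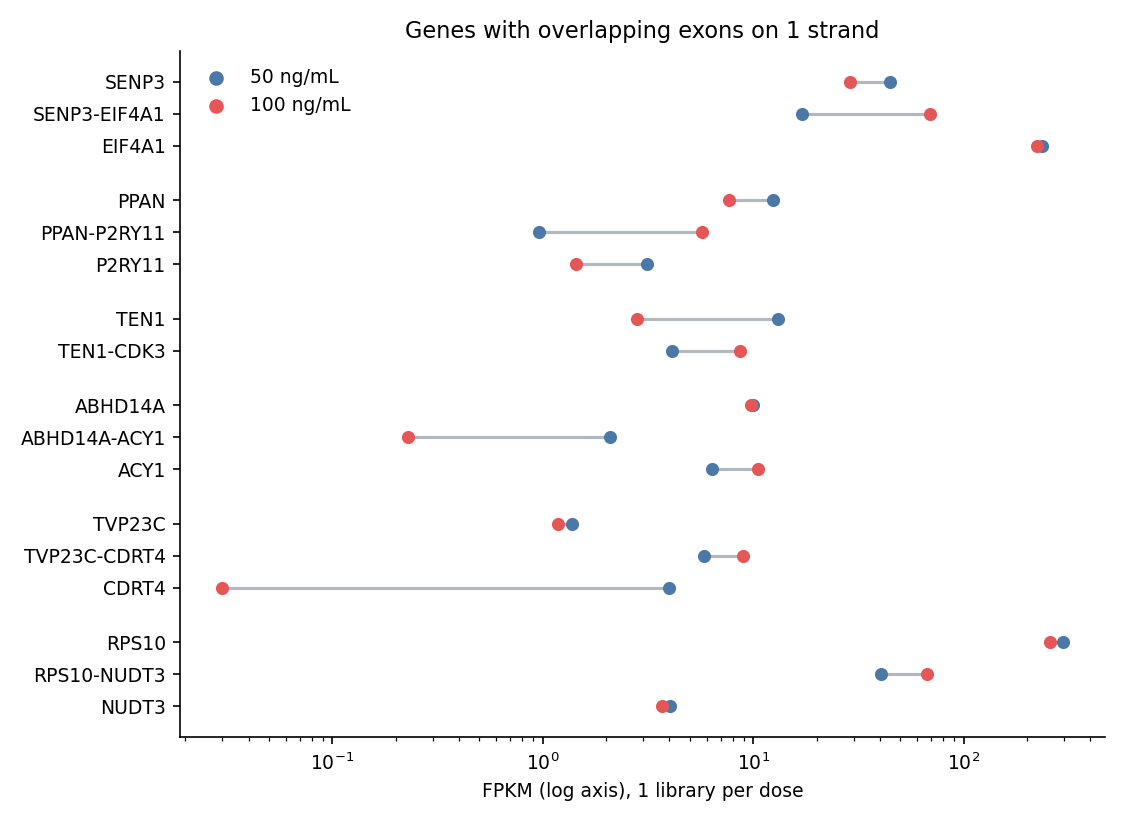
FPKM (x axis, log scale) of genes with overlapping exons on the same strand at 50 ng/mL (blue) and 100 ng/mL (red), 1 library per dose, grouped by locus. SENP3-EIF4A1 is at 17.1 and 69.6 FPKM while SENP3 is at 44.8 and 28.8 FPKM.

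The FPKM of all listed genes joined by exon overlap on the same strand were also summed. Of the 40 overlapping genes past 2-fold, 33 lay in a locus whose sum was within 1.5-fold, and 2 in a locus whose sum was still past 2-fold. For 26 of the 40, this was set in advance: the gene held too little of the sum (up to 33.3% at its higher dose) to take it past 1.5-fold alone, as with AL662899 beside CSNK2B. Of the other 14 genes, 7 lay in a locus whose sum was within 1.5-fold. Over all 14, the median size of the log2 difference was 1.97 for the genes and 0.60 for the loci. For 12 of these 14, the other genes of the locus summed to a difference in the opposite direction, of any size. Beside AC211476 (ENSG00000273897), the others were at 2.09 and 2.1 FPKM. Both members of the pairs TEN1 with TEN1-CDK3 and GATD3B with FP565260 are among the 14. An opposite direction was also found for 21 of the 26, and it was not counted over all tested overlapping genes. The 2 genes with a locus sum past 2-fold were TBC1D5, a regulator of endosome recycling, at 4.13 and 1.78 FPKM, and the non-coding LINC00526, at 3.08 and 1.17 FPKM. They made up 99.3% and 100% of their sums at 50 ng/mL, so their outcome was also set in advance. FPKM is scaled by the length of each gene, so such a sum is not a sum of fragments. Of the 82 genes, 37 had a tested overlapping gene, and for 17 of these (45.9%) such a gene was past 1.5-fold in the opposite direction, against 81 of the 626 tested genes with a tested overlapping gene (12.9%). Most of the 17 form pairs that overlap each other, so both members of a pair are counted. These pairs are TEN1 with TEN1-CDK3, GATD3B with FP565260, and MSANTD3-TMEFF1 with TMEFF1. The others are AL096870 with AL136295, LY6G5B with AL662899, and P2RY11 with PPAN-P2RY11. Whether the differences come from the division of fragments between overlapping genes or from the cells was not tested.

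Some genes with close copies or shared exons differed in opposite directions, and some did not. GATD3B was at 15.4 and 4.17 FPKM, and FP565260 (ENSG00000276612), which overlaps it on chromosome 21, was at 1.63 and 25.1 FPKM, the highest log2 difference of the middle band (3.87). Summed with the other listings of the symbol FP565260, among them ENSG00000275464 at 3.32 and 3.41 FPKM, its difference was 1.73. The locus of GATD3B, ENSG00000276612 and ENSG00000275464 summed to 20.3 and 32.7 FPKM (log2 difference 0.68), and the copy GATD3A was at 11 and 10.8 FPKM. SMN2, of the duplicated SMN genes for spliceosome assembly, was at 3.27 and 1.07 FPKM, and SMN1 was at 5.82 and 7.66 FPKM. MAGED4B was at 13.6 and 9.95 FPKM, and its copy MAGED4 at 13.3 and 18.5 FPKM. Of readthrough genes, RPL17-C18orf32 was at 12.6 and 8.65 FPKM beside RPL17, at 84.4 and 86.1 FPKM, and RPS10-NUDT3 at 40.6 and 66.8 FPKM beside RPS10, at 296 and 257 FPKM.

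Further genes at the ends of the bands were mostly listings with clone names. AC138811, whose exons overlap RPS15A and ARL6IP1, was at 36.5 and 9.77 FPKM (log2 difference -1.89). In the band from 1 to 10 FPKM, AL662899 was at 0.12 and 2.38 FPKM and AC135050, which overlaps VKORC1, at 0.16 and 2.77 FPKM. One of the AD000671 listings (ENSG00000267120) was at 0.1 and 2.45 FPKM. With listings of the same symbol summed, the sums of 2 of these symbols were not past 2-fold. The difference of the AC135050 sum was 0.42, against 3.46 for the listing, and that of the AD000671 sum was 0.47, against 3.67. AL662899 stayed at 3.49. A clone name can cover separate genes, so such a sum need not follow 1 gene. Another AD000671 listing, ENSG00000188223, lies on the opposite strand to ENSG00000267120. ASDURF, an upstream reading frame, was at 1.94 and 0.09 FPKM. Of non-coding genes, AC018761 was at 4.94 FPKM at 50 ng/mL and listed at 0 at 100 ng/mL, OR7E38P, an olfactory receptor pseudogene, was at 4 and 0.06 FPKM, and AL671762 was at 2.01 FPKM and listed at 0. In the other direction, AL139099 was listed at 0 and at 2.68 FPKM, AP001931 was at 0.35 and 2.14 FPKM, and the pseudogene AC068631 was at 2.7 and 10.1 FPKM.

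Coding genes with little shared sequence hardly differed. Of the 7916 coding genes with under 10% of their windows shared, 2 (0.0253%) were past 2-fold, against 41 of all 9891 coding genes and 0.752% of all tested genes. Both were lower at 100 ng/mL: TBC1D5 and KRT85. KRT85, a hair keratin, was at 4.05 FPKM at 50 ng/mL and 0.07 FPKM at 100 ng/mL, a log2 difference of -4.61, with 8.75% of its windows shared. This difference was -2.24 with a pseudocount of 1, -5.67 with 0.01 and -5.40 with TPM. KRT85 passed the mean filter only through the 50 ng/mL library. The neighbouring hair keratin genes KRT86, at 3.56 and 3.33 FPKM, and KRT83, at 0.48 and 0.39 FPKM, did not show such a difference. At 1.5-fold, 35 of the 7916 genes (0.442%) were past the threshold, 11 higher and 24 lower. Over all tested genes, 1.05% were higher and 1.4% lower at this threshold. The 35 genes were all among the 4970 between 1 and 10 FPKM. None of the 2683 between 10 and 100 FPKM was past 1.5-fold. The extremes there were TRAPPC6A, a subunit of a vesicle-tethering complex, at 13 and 17.6 FPKM (log2 difference 0.43), and CENPH, of the inner kinetochore, at 12.7 and 10.2 FPKM (log2 difference -0.32). Coding genes with little shared sequence were set apart after their values were seen.

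FGFR4 and its co-receptor were low in both libraries. FGFR4, its main receptor in liver, was at 1.21 FPKM at 50 ng/mL and 1.31 FPKM at 100 ng/mL. KLB, the co-receptor, was listed at 0 and at 0.02 FPKM and did not pass the filter. FGFR1 was the most abundant receptor, at 16 and 14.7 FPKM (log2 difference -0.12), and FGFR3 was at 1.23 and 1.09 FPKM. FGFRL1, which lacks the kinase domain, was at 9.37 and 9.85 FPKM. The other genes of that list were not analysed here. None of the 4 receptors that passed the filter was past 1.5-fold, where 1.05% of all tested genes were higher and 1.4% lower.

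The ERK cascade and its feedback genes were close at both doses. Of 18 adaptors and kinases tested, 7 were higher and 11 lower, with a median log2 difference of -0.02, against 0.00 over all tested genes. The lowest was SOS2, an exchange factor, at 2.75 and 2.14 FPKM (log2 difference -0.35). Of 13 feedback and ETS genes tested, 6 were higher and 7 lower, with a median of 0.00. DUSP6, the phosphatase that inactivates ERK, was at 11.2 and 11.3 FPKM, SPRY2 at 6.67 and 6.93 FPKM, and SPRY4 at 6.09 and 5.73 FPKM. DUSP5 was at 29.1 and 28.7 FPKM and DUSP4 at 5.07 and 5.42 FPKM. DUSP7 was at 9.11 and 9.1 FPKM. The ETS factors ETV4 and ETV5, induced by FGF signals in many tissues, were at 22.4 and 23.4 FPKM and at 22.6 and 19.9 FPKM. The inhibitors of RAS signalling SPRED1 and SPRED2 were at 4.5 and 4.44 FPKM and at 4.55 and 4.63 FPKM, and SPRED3 had the lowest log2 difference of the list (-0.19). CCND1, cyclin D1, was at 104 and 106 FPKM, and PHLDA1 at 29.9 and 29.7 FPKM.

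Cytokine genes of iCAFs differed little between the doses. Of 18 tested, 6 were higher and 12 lower at 100 ng/mL, and the median was -0.06. The neutrophil attractants CXCL8, at 143 and 146 FPKM, and CXCL1, at 207 and 205 FPKM, were among the most abundant, with CCL5 at 246 and 244 FPKM. CXCL5 had the highest log2 difference of the list (0.13), at 6.58 and 7.19 FPKM, and CXCL2, CXCL3 and CXCL6 had log2 differences of 0.05, 0.09 and -0.10. IL6 was at 18.4 and 17.3 FPKM, IL1B at 102 and 95.7 FPKM, and IL1A at 2.78 and 2.97 FPKM. LIF, a cytokine of the IL-6 family, was at 11.2 and 9.99 FPKM, and IL11, another, at 61 and 62.3 FPKM. The colony-stimulating factors CSF1, CSF2 and CSF3 had log2 differences of -0.07, -0.09 and -0.13. CXCL12 had the lowest (-0.26), at 1.45 and 1.19 FPKM, HAS2, a hyaluronan synthase, was at 2.15 and 1.92 FPKM, and LY6E was at 44.8 and 43.4 FPKM. The other 8 genes of the list in the table, among them CCL2 and IL33, did not pass the filter.

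The contractile genes of myCAFs had a median of -0.03, with 6 of 16 higher and 10 lower. ACTG2, a smooth muscle actin, was at 16.6 FPKM at both doses, and the highest and lowest of the list were TAGLN (0.09) and the matrix protein TNC (-0.09). The cross-linkers of actin FLNA and ACTN1 were at 553 and 536 FPKM and at 133 and 127 FPKM. The myosin genes MYH9, MYL9 and MYL6 had log2 differences of -0.09, -0.06 and 0.02. The tropomyosins TPM1, TPM2 and TPM4 had log2 differences of -0.03, 0.00 and 0.03. For CNN1, CNN2, CALD1 and VCL the log2 differences were 0.04, -0.05, -0.03 and -0.01.

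**Figure D4:**
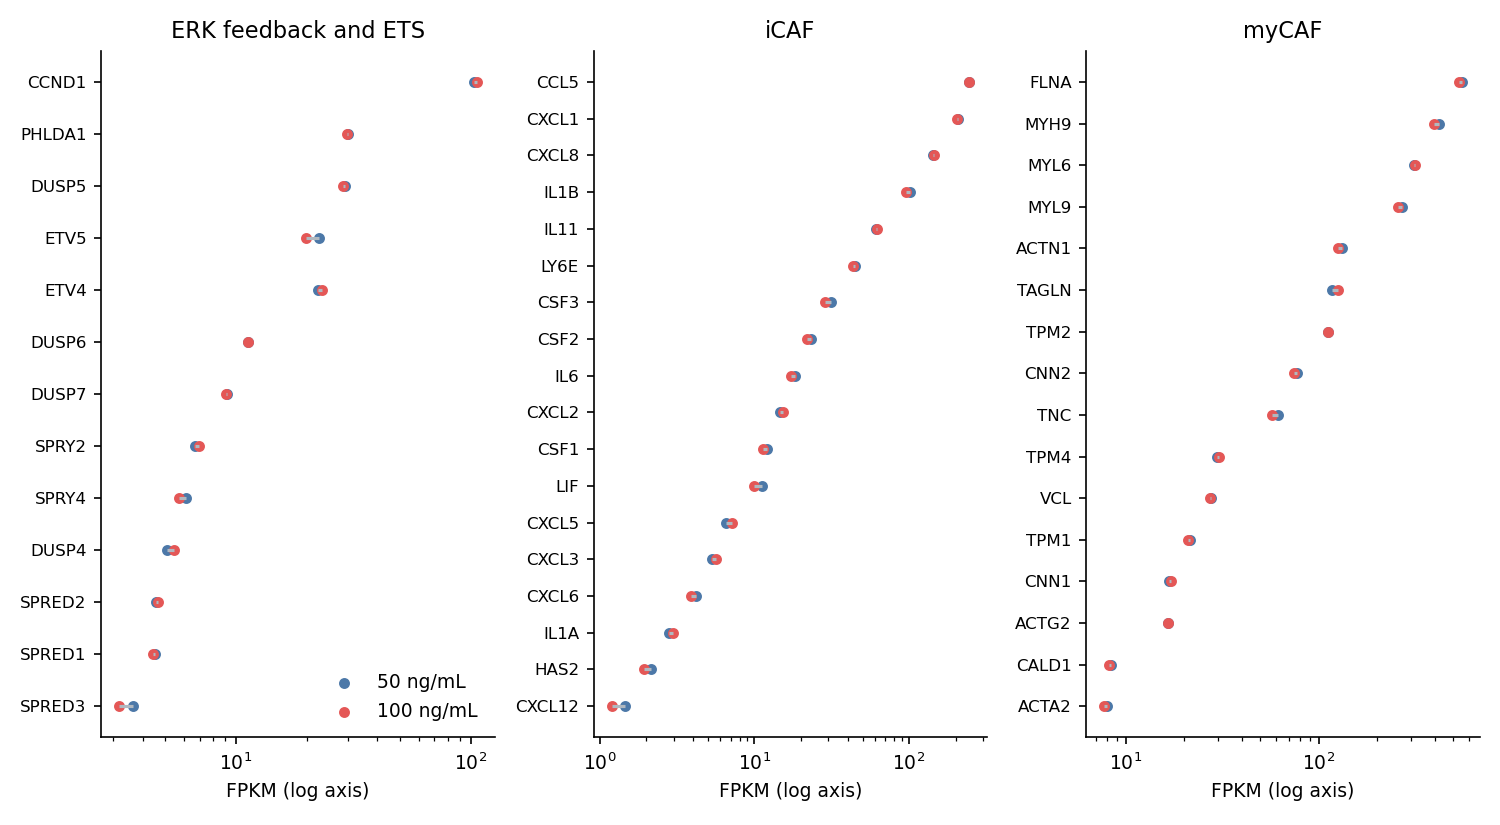
FPKM (x axis, log scale) at 50 ng/mL (blue) and 100 ng/mL (red), 1 library per dose, of the tested ERK feedback and ETS, iCAF and myCAF genes, ordered by level. The points of each gene nearly coincide. None of these genes is past 1.5-fold, where 1.05% of all tested genes were higher and 1.4% lower.

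Signalling and inflammatory lists lay close to 0 as well. The medians were -0.05 for 21 AP-1 and immediate early genes, 0.00 for 18 JAK-STAT genes, -0.04 for 17 NF-kappaB genes and 0.01 for 25 interferon-stimulated genes. ZFP36, which destabilises cytokine mRNAs, was the lowest of the AP-1 list at 4.51 and 3.19 FPKM (log2 difference -0.49), and BTG2, an antiproliferative gene, the highest (0.30). In the JAK-STAT list the ends were MCL1 (-0.09) and the kinase PIM3 (0.19). NFKBIA, the inhibitor of NF-kappaB, was at 57.1 and 52.1 FPKM, and RELB, one of its subunits, at 24.6 and 28 FPKM. Complement and other secreted factors had a median of -0.06 over 9 genes, from CD55 (-0.25) to CD59 (0.07). The medians were -0.03 for 15 MHC class I genes, from HLA-E (-0.06) to HLA-B (0.08), and 0.00 for 3 genes of the EGF receptor family, HBEGF (-0.06) to ERBB2 (0.06).

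IRF9, the DNA-binding subunit of the interferon-activated ISGF3 complex, was the only interferon-stimulated gene past 1.5-fold among the 25 tested. Of all tested genes, 1.05% were higher and 1.4% lower at that threshold. IRF9 was at 3.72 FPKM at 50 ng/mL and 0.93 FPKM at 100 ng/mL, a log2 difference of -1.89. All of its windows (100%) are shared with other listed genes, and AL136295 (ENSG00000259529), whose exons overlap it on the same strand, was at 13.2 and 17.1 FPKM. RNF31, of the same locus, was at 4.92 and 1.83 FPKM, and the 3 genes summed to 21.8 and 19.8 FPKM. IRF9 and RNF31 made up 17.1% and 22.6% of that sum at 50 ng/mL, each too little to take it past 1.5-fold alone. Other interferon-stimulated genes were ISG15, at 311 and 321 FPKM, IFIT3, at 35.7 and 32.9 FPKM, and OAS2, the highest of the list at 1.58 and 1.88 FPKM.

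Matrix and adhesion genes also matched closely. Only 1 was past 1.5-fold, where 1.05% of all tested genes were higher and 1.4% lower. It was MMP3, a matrix protease, at 1.64 and 0.92 FPKM (log2 difference -0.77). MMP3 passed the mean filter only through the 50 ng/mL library and is in the lowest decile by level. The 5th percentile of the log2 difference in that decile was -0.63. MMP1 was at 210 and 218 FPKM and MMP19, the highest of the list, at 6.22 and 6.98 FPKM. The median was -0.01 over 18 proteases and inhibitors. It was -0.02 over 19 collagen chains, from COL16A1 (-0.17) to COL4A6 (0.09), and 0.00 over 10 integrin subunits, from ITGB3 (-0.09) to ITGAV (0.14). In the TGF-beta list of 17 genes the median was 0.00, with SMAD4 lowest (-0.22) and INHBA, an activin subunit, highest at 2.86 and 3.47 FPKM. The 16 YAP and TEAD targets had a median of 0.01, from ANKRD1 (-0.26) to TEAD4 (0.05).

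All lists together held 765 distinct tested genes, of which 2 (0.261%) were more than 2-fold lower and 0 more than 2-fold higher, against 0.431% and 0.321% of all tested genes. These were IRF9 and the histone gene H2AC20, at 1.64 and 0.7 FPKM. At 1.5-fold, 3 more were past the threshold: MMP3, the histone gene H2AC17, at 1.4 and 0.89 FPKM, and the metallothionein-like MT1L, at 6.05 and 9.93 FPKM. This makes 1 list gene higher and 4 lower, against 1.05% and 1.4% of all tested genes.

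Small differences in the same direction ran through the translation and respiration genes. Of 79 ribosomal protein genes, 69 were higher at 100 ng/mL, with a median of 0.05 and a range over the 8 other settings of 0.02 to 0.05. Of the 69 nuclear genes of oxidative phosphorylation, 56 were higher, with a median of 0.05 (0.03 to 0.06), from SDHB (-0.09) to NDUFS5 (0.24). Of the 13 genes encoded in mitochondrial DNA, 11 were higher, with a median of 0.07, which was 0.00 with quantile normalization. They ranged from MT-ND1 (-0.02) to MT-CO2 (0.17). Of 20 non-coding hosts of small nucleolar RNAs, 16 were higher, with a median of 0.10 (0.07 to 0.10), from SNHG20 (-0.32) to SNHG8 (0.52). GAS5, one of them, was at 18.3 and 21.1 FPKM, and ZFAS1 at 8.93 and 9.75 FPKM. Over all tested genes, 49.3% were higher.

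The ribosomal protein and oxidative phosphorylation genes are more abundant and have shorter transcripts than most, whereas the median level of the small nucleolar RNA hosts, 6.22 FPKM, is close to that of all tested genes, 5.85 FPKM. Between 1 and 10 FPKM, 16 of these hosts had a median of 0.09, against -0.01 over all genes. Of all genes above 100 FPKM, 67.8% were higher at 100 ng/mL, with a median of 0.02. The 53 ribosomal protein genes in that band had a median of 0.05. Between 10 and 100 FPKM the median was 0.00 over all genes, 0.05 over 26 ribosomal protein genes and 0.07 over 49 oxidative phosphorylation genes. The median transcript length was 671 bases for the ribosomal protein genes and 630.5 for the oxidative phosphorylation genes, against 955 for all tested genes. In the decile of genes with the shortest transcripts, the median difference was 0.01, and in the decile with the longest it was -0.01. After removal of a length trend, the medians were 0.05 for the ribosomal protein genes, 0.05 for the oxidative phosphorylation genes and 0.10 for the small nucleolar RNA hosts, the same as before to 2 decimals. Level was examined only by these bands, and the cause of the differences was not tested.

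Metabolic and stress lists leaned the other way or lay near 0. Of 24 cholesterol synthesis and uptake genes, 18 were lower at 100 ng/mL, with a median of -0.06 and a range over the other settings of -0.09 to -0.05. SQLE, squalene epoxidase, was at 12.9 and 12 FPKM. The lowest was IDI1 (-0.18) and the highest PMVK (0.29). Of 12 fatty acid genes, 8 were lower, with a median of -0.05, from ACSL3 (-0.17) to SREBF1 (0.07). The medians were -0.02 for 22 ATF4 genes, from ATF3 (-0.26) to PSPH (0.14), -0.04 for 21 genes of the unfolded protein response, from DNAJC3 (-0.15) to SDF2L1 (0.12), and -0.01 for 20 heat shock genes, from DNAJB4 (-0.21) to CHORDC1 (0.16). They were -0.02 for 21 NRF2 genes, from SLC7A11 (-0.17) to PRDX1 (0.11), -0.03 for 16 p53 targets, from RRM2B (-0.24) to DDB2 (0.10), and -0.01 for 22 genes of glycolysis and hypoxia, from HK1 (-0.10) to P4HA1 (0.27). Of 9 metallothionein and zinc genes, 6 were lower, with a median of -0.09 and MT1A lowest (-0.31), although MT2A, the most abundant, was at 764 and 824 FPKM.

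Proliferation genes showed no common direction. Of 45 mitosis genes, 24 were higher and 20 lower, with a median of 0.01, from NUF2 (-0.30) to KIF15 (0.34). Of 38 replication genes, 13 were higher and 25 lower, with a median of -0.02, from CCNE2 (-0.39) to POLE2 (0.22). The 26 replication-dependent histone genes, whose copies are alike in sequence and whose mRNAs mostly lack a poly(A) tail, had a median of 0.07, from H2AC20 (-1.12) to H4C8 (0.46). H3C3, a histone gene that the matching of symbols left out of this list, was at 1.51 and 0.7 FPKM (log2 difference -1.01). The medians were 0.00 for 31 proteasome genes, from PSMD14 (-0.17) to PSMA6 (0.12), and 0.02 for 15 common reference genes, from HPRT1 (-0.22) to TBP (0.16). Genes of bile acid handling and FXR, the classical system of FGF19, were below the filter: 0 of 6 in the table passed, and CYP27A1 was the most abundant at 0.5 and 0.59 FPKM.

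**Figure D5:**
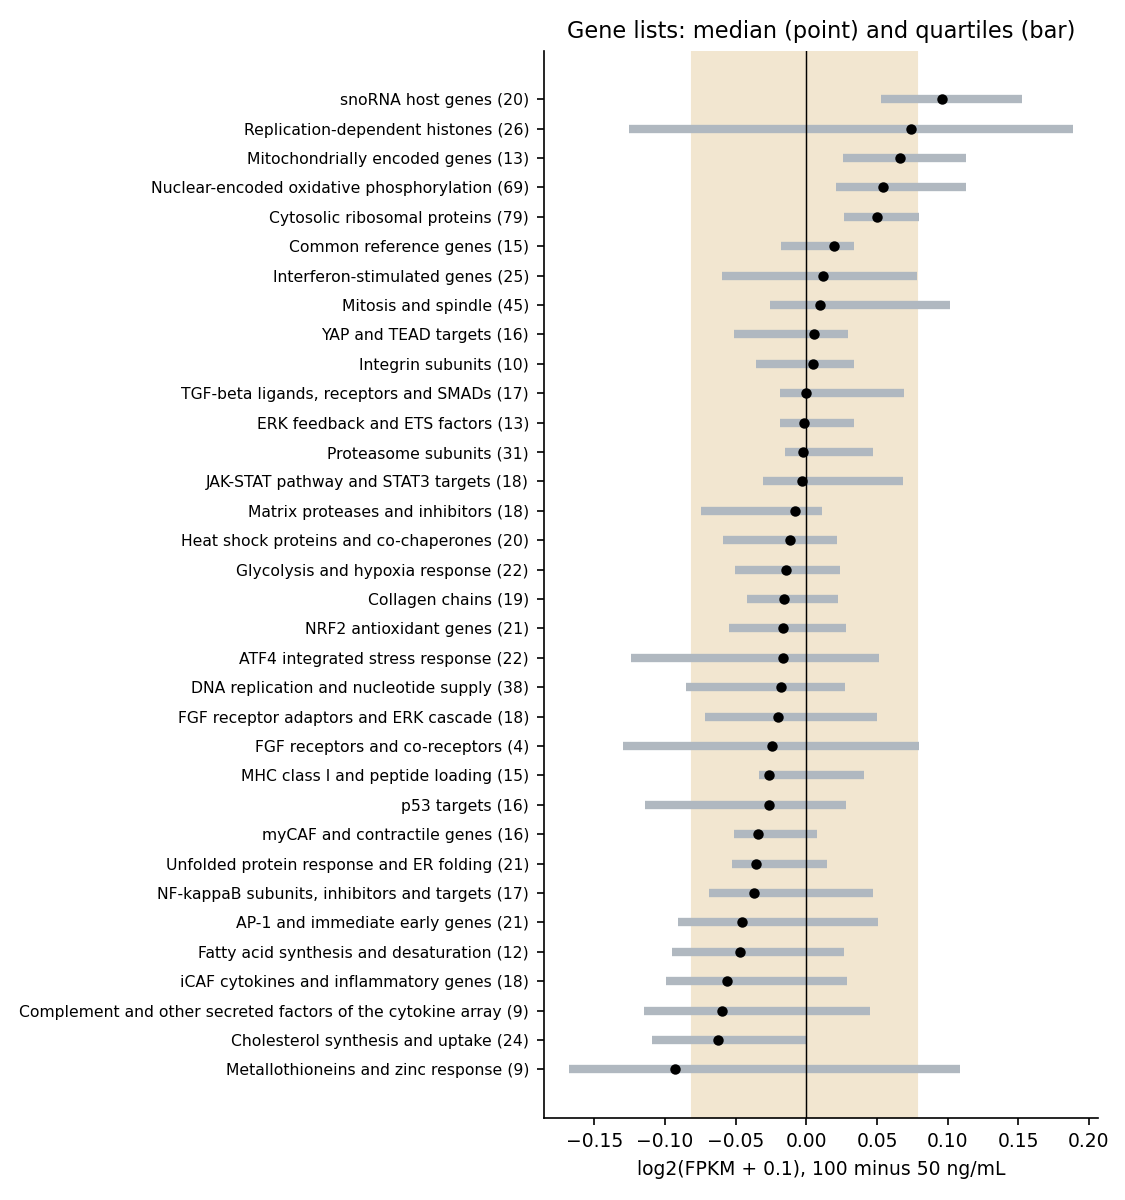
Median (point) and quartiles (bar) of the log2 difference, 100 minus 50 ng/mL (x axis), for each list with 4 or more tested genes, whose number is in brackets; the shaded band spans the quartiles over all tested genes, -0.08 to 0.08. The hosts of small nucleolar RNAs have the highest median, 0.10.

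Terms of the Gene Ontology as given in the table were read over 1946 terms with at least 15 tested genes. The quartiles of their medians were -0.02 and 0.01. The highest medians were 0.12 for both mitochondrial electron transport from cytochrome c to oxygen (15 of 17 genes higher) and cytochrome-c oxidase activity (17 of 19), followed by oxidative phosphorylation at 0.11 (19 of 22), potassium channel activity at 0.09 (12 of 16) and the BLOC-1 complex of lysosome-related organelles at 0.08 (9 of 15). The lowest were embryonic skeletal system morphogenesis at -0.13 (18 of 27 genes lower), positive regulation of phosphatidylinositol 3-kinase activity at -0.12 (12 of 17), skeletal system morphogenesis at -0.11 (18 of 27), actin filament bundle assembly at -0.10 (21 of 25) and positive regulation of neurogenesis at -0.09 (11 of 16). None of these 10 terms held a gene past 2-fold, against 0.752% of all tested genes.

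TOMM6 and MRPL53 were coding genes past 2-fold in the middle band whose promoters share an ETS motif. TOMM6, a small subunit of the mitochondrial import pore, was at 21.7 and 46.3 FPKM, and the overlapping AL365205 at 15.8 and 11.8 FPKM. MRPL53, a mitochondrial ribosomal protein, was at 13.6 and 33.1 FPKM, and the overlapping CCDC142 at 6.67 and 5.29 FPKM. The sums of these loci differed by 0.63 and 0.92 on the log2 scale. Of the windows, 100% for TOMM6 and 50% for MRPL53 are shared with other listed genes. The 250 bases before each start are shown with that for IRF9, the interferon gene lower at 100 ng/mL, from RefSeq, GRCh38.p14. Capitals mark the ETS motif CCGGAAGT or the E-box CACGTG.
TOMM6, chr6:41787444-41787693, plus strand: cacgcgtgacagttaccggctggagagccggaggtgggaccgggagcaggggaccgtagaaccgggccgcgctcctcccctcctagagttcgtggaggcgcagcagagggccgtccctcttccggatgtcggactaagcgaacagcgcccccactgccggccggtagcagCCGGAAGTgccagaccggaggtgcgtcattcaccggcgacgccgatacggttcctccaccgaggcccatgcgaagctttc
MRPL53, chr2:74472681-74472930, minus strand: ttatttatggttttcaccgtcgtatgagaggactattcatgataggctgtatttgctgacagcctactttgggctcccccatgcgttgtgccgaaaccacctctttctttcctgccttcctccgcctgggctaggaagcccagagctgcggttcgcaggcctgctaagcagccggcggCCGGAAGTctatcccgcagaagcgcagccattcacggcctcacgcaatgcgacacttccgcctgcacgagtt
IRF9, chr14:24161015-24161264, plus strand: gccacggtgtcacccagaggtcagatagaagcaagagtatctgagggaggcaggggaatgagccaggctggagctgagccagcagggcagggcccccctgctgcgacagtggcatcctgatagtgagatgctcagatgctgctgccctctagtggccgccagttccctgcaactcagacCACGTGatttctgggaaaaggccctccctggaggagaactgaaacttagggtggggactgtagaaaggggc

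Motifs were searched on both strands of 300-base promoters, 250 bases before to 50 after the start. Promoters were found for 8210 of 10860 tested symbols, for 7 of 35 higher genes and for 19 of 47 lower genes. The ETS motif CCGGAAGT was in 2 of the 7 promoters of higher genes, in 1 of the 19 of lower genes and in 11% of all tested. It also lies before a RefSeq start of PPAN, which was lower at 100 ng/mL (12.4 and 7.7 FPKM) but not past 2-fold. The E-box CACGTG was in 0 of 7, in 2 of 19 and in 12.9% of all, and the TATA box TATAAA in 0 of 7, in 4 of 19 and in 7.95%. The AP-1 site TGACTCA, the cyclic AMP response element TGACGTCA and the STAT site TTCCNGGAA were in 0 of the 26 promoters of both groups and in 4.69%, 4.08% and 1.62% of all tested, respectively. A match is a description of the sequence and not a site of binding.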

How the data were processed

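Poly(A) mRNA of 3 LX-2 cultures, 1 library each, was sequenced from paired ends on an Illumina HiSeq. The values used are the FPKM that the authors deposited per gene. The submitters' processing notes list Bowtie 0.12.2, HISAT2 2.0, StringTie 1.3.0 and the builds mm8 and hg19 without their roles. The paper names HISAT2 for the mapping, and the program behind the FPKM values is not given in the sources used here. GENCODE v29 (GRCh38), used for gene types, transcripts, lengths and GC content, held 25531 of the identifiers, 25527 at overlapping positions. Samples were grouped by title.

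From the deposited FPKM values, log2(FPKM + 0.1) at 100 minus 50 ng/mL was computed where both libraries averaged 1 FPKM or more; the added 0.1 shrinks the differences of low genes. No test, p-value or interval was made, and the depth is unknown. Sequence shared between genes was measured in 50-base windows, every 10 bases, on either strand. The genes named were the 5 highest and 5 lowest coding genes in each band of mean FPKM, the 3 highest and 3 lowest other genes, the genes at the filter, the FGF receptor, ERK feedback, iCAF and myCAF genes, and the highest and lowest member of every other list, some of which are not reported here; further genes were chosen after their values were seen. The 41 lists and the genes were chosen with earlier results of these data known. The alternatives were other pseudocounts, filters, thresholds and scalings, removal of GC or length trends by locally weighted regression (span 0.3), summed symbols and exchanged doses. Python 3.11.15, NumPy 2.4.6, pandas 2.3.3, statsmodels 0.14.6 and matplotlib 3.10.9 were used.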

Additional observations from a re-analysis of the deposited data

How the results depend on the processing

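The counts of 35 genes more than 2-fold higher and 47 lower at 100 ng/mL depended on the handling of low and overlapping genes. They were 16 and 24 with a pseudocount of 1, 1066 and 1003 without a filter, 9 and 7 at a mean of at least 5 FPKM, 16 and 23 with at least 1 FPKM in each library, and 115 and 153 at 1.5-fold. Without the filter the interquartile range of the log2 differences was 0.35 instead of 0.16. Chosen after seeing the data were 3 alternatives: the counts were 10 and 6 among genes with under 10% of windows shared, 16 and 25 among protein-coding genes, and 19 and 25 with overlapping genes of the same strand summed. With a pseudocount of 0.01, TPM scaling, the median set to 0, quantile normalization, GC or length trends removed, or symbols summed, the counts stayed between 34 and 38 higher and between 44 and 57 lower, and the exchanged doses gave 47 and 35. The median difference was between -0.03 and 0.00 in all settings. The medians of the lists moved by at most 0.07 over 8 settings. For the 36 coding and other genes named for the highest and lowest differences, 49 values over these settings moved by 0.12 or more on the log2 scale, 235 moved by less and 0 reversed. The other named genes were not followed over settings. No paired analysis was possible because each dose has 1 library and no test was made. With no read counts, the depth behind values near the filter is unknown.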

Other observations

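The non-coding genes past 2-fold included short RNAs that the libraries were not made to capture. Of 45 short non-coding genes that passed the filter, 8 (17.8%) were past 2-fold, 7 higher and 1 lower at 100 ng/mL, against 0.752% of all tested genes and 0.395% of 9881 protein-coding genes of the annotation. They included the miRNA hairpin genes MIR221, at 0.72 and 2.05 FPKM, MIR589, at 0.53 and 1.79 FPKM, and MIR7111, at 0.47 and 1.55 FPKM, the RNase P RNA RPPH1, at 1.58 and 3.39 FPKM, and SNORD125, at 3.66 and 0.4 FPKM. MIR221, MIR589, MIR7111, a Y_RNA listing and RN7SL263P were below 1 FPKM at 50 ng/mL. They passed the mean filter only through the 100 ng/mL library, and SNORD125 passed it only through the 50 ng/mL library. The share of short non-coding genes past 2-fold with at least 1 FPKM in each library was not counted. Their median transcript length was 114 bases. These libraries were made from poly(A) mRNA, and the FPKM of a hairpin gene is not a level of mature miRNA. The mature miRNA of MIR221 is shown from RefSeq, GRCh38.p14, chrX:45746180-45746202, minus strand, with its seed (bases 2 to 8) in capitals.
hsa-miR-221-3p: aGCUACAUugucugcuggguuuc

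Of 493 pseudogenes and 423 long non-coding genes, 15 (3.04%) and 17 (4.02%) were past 2-fold, against 0.752% of all tested genes. Their median levels were 2.88 and 1.85 FPKM, against 6.49 FPKM for coding genes. Of the 1091 genes in the lowest decile of level, 28 were past 2-fold. Whether the contrast between the classes goes with level was not tested. Within the band from 1 to 10 FPKM, 0.591% of the 6089 coding genes were past 2-fold, against 1.07% of all 6942 genes, and from 10 to 100 FPKM 0.147% of coding genes against 0.226% of all. Some non-coding genes passed the mean filter only through the library where they were high. Examples are the pseudogenes BRD9P2, at 4.01 and 0.12 FPKM, and SNRPGP2, at 0.59 and 1.93 FPKM. With at least 1 FPKM in each library, 16 genes of all kinds were more than 2-fold higher and 23 lower. The shares by class were not counted with that filter. The pseudogene RPL14P1 was at 40.5 and 11.8 FPKM while RPL14 was at 34 and 37.7 FPKM. The antisense gene AL662797 was at 23.3 and 62.5 FPKM.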
